A study of Mus musculus with 12 samples.

Results

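The genes described here are 9 transcription factors and cofactors of the developing heart: Hand2, Tbx20, Tbx5, Nkx2-5, Mef2c, Isl1, Gata5, Tbx2 and Myocd. They were chosen by symbol from the array's gene table, which assigns 21 probe sets to them. The array as a whole carried 45101 probe sets, and 18193 genes had a probe set of their own. The probe set with the highest mean over the 12 arrays stands for each gene and is called its main probe set.

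The arrays measured RNA of D3 mouse embryonic stem cells in 4 groups of 3, with values given as log2 signals. Control day0 cells were sampled undifferentiated without an agent, and control day8 cells after 8 days without an agent. BPA day8 and NP day8 cells received the agent of that name, which the labels do not spell out and for which they give no dose. All groups share the D3 line and growth on mouse embryonic fibroblast feeders treated with MMC. The labels give differentiation through embryoid bodies, which are aggregates that form tissues of several germ layers. Nothing in the labels says that replicates were separate cultures, so p-values measure the spread between these samples, which may be technical.

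Heart muscle arises from mesoderm in which a network of transcription factors is switched on in sequence. GATA, T-box, NK homeodomain, LIM homeodomain, bHLH and MADS proteins bind neighbouring sites in cardiac enhancers and activate one another and the genes of the contractile apparatus. Isl1 marks progenitors of the second heart field, which builds the outflow tract and right ventricle, while Tbx5 and Nkx2-5 act early in the first heart field. None of these factors is restricted to the heart: Isl1 also acts in motor neurons, Tbx5 in the forelimb, Mef2c in vessels and neurons, and Gata5 in endoderm.

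Promoter windows of 6 of the 9 genes were found in RefSeq's table for GRCm38.p6, as 8 windows because Mef2c has 3 start sites. Tbx5, Tbx2 and Myocd had no entry. The 250 bases before the start are shown for Hand2, Isl1 and Tbx20, the genes that stood above day 0 in all 3 groups of day 8. Capitals mark matches to motifs of heart factors, where a match on the opposite strand appears as its reverse complement. Hand2 lies on the plus strand at chr8:57320733-57320982, Isl1 on the minus strand at chr13:116309689-116309938 and Tbx20 on the minus strand at chr9:24774304-24774553.
Hand2: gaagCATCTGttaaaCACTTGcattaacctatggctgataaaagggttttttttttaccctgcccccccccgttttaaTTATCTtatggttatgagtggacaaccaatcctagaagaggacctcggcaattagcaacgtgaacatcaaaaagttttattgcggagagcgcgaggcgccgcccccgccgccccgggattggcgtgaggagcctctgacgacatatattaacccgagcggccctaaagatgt
Isl1: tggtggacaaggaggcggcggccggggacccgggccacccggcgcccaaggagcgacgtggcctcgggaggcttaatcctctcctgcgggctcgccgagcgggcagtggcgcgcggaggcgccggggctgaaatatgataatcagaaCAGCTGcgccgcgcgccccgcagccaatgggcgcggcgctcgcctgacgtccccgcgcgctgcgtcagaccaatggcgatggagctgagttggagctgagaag
Tbx20: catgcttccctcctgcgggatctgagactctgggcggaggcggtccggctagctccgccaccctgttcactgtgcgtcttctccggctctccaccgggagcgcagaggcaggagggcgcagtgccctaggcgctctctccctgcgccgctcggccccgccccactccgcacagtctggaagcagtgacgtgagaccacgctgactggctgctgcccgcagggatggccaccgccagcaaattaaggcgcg

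The motifs searched were AGATAA for GATA factors, CAGCTG and CATCTG for bHLH factors, GGTGTG for T-box factors, CAAGTG for NKX2 factors, TATAAA for the TATA box, and the CArG and MEF2 boxes by name. No matches overlapped. The Hand2 window held AGATAA 167 to 172 bases before the start, CAAGTG 230 to 235 and CATCTG 241 to 246 bases before it. Of all 32851 windows of this length in the table, 10.0% held AGATAA, 11.6% CAAGTG and 14.4% CATCTG. The Isl1 window held 1 CAGCTG, 98 to 103 bases before the start, a motif found in 13.0% of windows. None of the letters searched was present in the Tbx20, Gata5 or Nkx2-5 window. Among the Mef2c windows, CAAGTG and TATAAA were found in the first, GGTGTG (16.3% of windows) and TATAAA (12.4%) in the second, and CATCTG in the third. The CArG box (1.5% of windows) and the MEF2 box (0.5%) were found in none of the 8 windows. A match describes the letters of the window and shows no binding.

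The first comparison asked how the genes changed over differentiation without an agent. At day 8, 6 of the 9 genes were higher than at day 0, by a log2 change of 4.95 for Isl1, which was measured above background on both sides, and by at least 6.44 for Hand2 and 2.36 for Tbx2, while Tbx5, Nkx2-5 and Gata5 did not pass. The calls are limma calls at an adjusted p under 0.05. By the same rule 28.3% of the 13066 genes tested were higher at day 8 and 20.5% lower. The groups of arrays did not overlap, with day 8 higher, for 6 of the 9, against 32.5% of all genes. The median change of the 9 genes was 4.62, or 2.61 with values under background set to it, and that of all genes tested 0.12. Tbx2 lay under the filter on low values, so its test comes from the fit without a filter, in which 32.2% of 18193 genes were called in either direction. The other 8 genes passed the filter, some of them through their day 8 signal.

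Hand2 is a bHLH factor of the second heart field and right ventricle. It gave 3.38, 2.80 and 1.40 on the day 0 arrays and 10.12, 9.88 and 9.53 on the control day8 arrays. All day 0 values lay under 3.41, the highest value of 3 bacterial control probe sets, which serves here as the background level. The groups were far apart, and the level at day 8 was at least 86.5-fold above background (adjusted p = 4.64e-05, limma). Its other probe set above the filter gave 2.66, 3.58 and -0.74 at day 0 and 4.47, 4.68 and 3.66 at control day8. Tested on its own over all probe sets, that probe set was at 0.81 with the floor and did not pass (adjusted p = 0.11, limma). Isl1, the LIM homeodomain factor, gave 3.73, 3.50 and 3.47 at day 0. It gave 8.54, 8.71 and 8.29 at control day8, all above every day 0 array. The change was 4.95 ± 0.47 (SE), with an adjusted p of 3.61e-05 by limma.

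Nkx2-5, the NK homeodomain factor that is an early marker of cardiac progenitors, was low throughout. Its single probe set gave 2.97, 4.41 and 3.70 at day 0 and 5.26, 5.41 and 3.71 at control day8. The groups overlapped, because control day8 replicate 3 lay below a day 0 array. The change was 1.10 ± 0.53 (0.95 with values under background set to it, adjusted p = 0.118, limma), and without that array it was 1.64 (adjusted p = 0.0208).

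Among the T-box factors, Tbx20, which acts in the myocardium and the cushions, gave 3.67, -0.30 and 1.50 at day 0. At control day8 it gave 9.17, 9.05 and 8.07, with no overlap. With low values set to the background level its rise was at least 5.27 (adjusted p = 0.000234, limma). Tbx2, a repressor that holds chamber genes off in the atrioventricular canal, gave 0.87, -1.60 and 0.48 at day 0, all under background. Its values of 6.09, 5.95 and 5.26 at control day8 were at least 5.14-fold above background (adjusted p = 0.00697 without a filter, limma). Tbx5, an activator of the first heart field, gave -0.42, 4.08 and 2.69 and then 5.42, 5.84 and 3.82. A day 0 array lay above a control day8 array, and the fitted change of 2.91 ± 1.27 did not pass (adjusted p = 0.0858, limma). It passed with the floor at background (1.39, adjusted p = 0.0215) and with 32 added to the signals (0.77, adjusted p = 0.00916). Without control day0 replicate 2 the fitted change was 3.89 (adjusted p = 0.0388).

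Mef2c, the MADS factor that works with GATA and bHLH proteins, gave 2.60, 3.69 and 4.31 at day 0. At control day8 it gave 7.16, 7.36 and 6.26, a rise of at least 3.13 (adjusted p = 0.000997, limma). All control day8 arrays lay above all day 0 arrays. Myocd, the cofactor through which SRF activates smooth and cardiac muscle genes, gave 2.57, 0.47 and 1.13, all under background, and then 5.88, 6.68 and 5.49. Its level at control day8 was at least 6.10-fold above background (adjusted p = 0.00914, limma).

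Gata5, a zinc finger factor of endoderm and endocardium, differed between its probe sets. The main one gave 4.64, 3.78 and 3.74 at day 0 and 4.30, 5.18 and 4.72 at control day8, which overlap (0.68 ± 0.54, adjusted p = 0.341, limma). The second, with a lower mean over all arrays, gave 2.69, 2.94 and -0.59 and then 6.12, 6.49 and 5.55. Tested on its own over all probe sets its change was at least 2.65 and did not pass (adjusted p = 0.0571). As the mean of both probe sets the gene passed at 2.52 (adjusted p = 0.017).

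**Figure D1:**
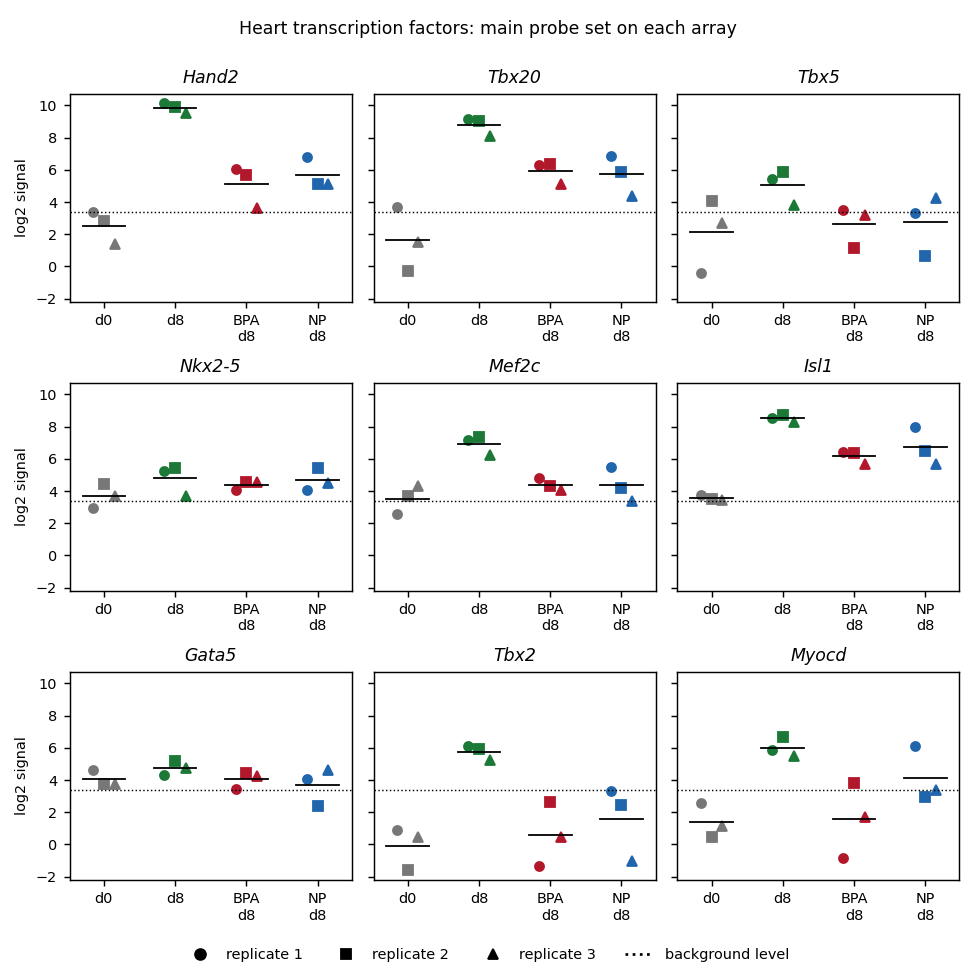
Log2 signal of the main probe set of each of the 9 genes (vertical axis) on every array, by group, with a symbol per replicate, a bar at the group mean and a dotted line at the background level of 3.41. All 9 genes have their highest group mean at control day8, while the arrays of Nkx2-5 and of Gata5 overlap between all groups.

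The second comparison set cells given BPA against control day8. All 9 changes were negative, and 5 genes passed as lower than control day8: Hand2, Mef2c, Isl1, Tbx2 and Myocd. Among all genes tested 10.2% were lower by the same rule, and 12.4% were called in either direction without a filter, the fit that gives the value for Tbx2. All BPA arrays lay below all controls for 7 of the 9 genes and for 19.2% of all genes. The median change was -2.53, or -2.36 with the floor at background, and 0.04 over all genes. In bulk RNA fewer cells of a type and less RNA per cell cannot be told apart.

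Hand2 gave 6.08, 5.67 and 3.61 with BPA, all below the lowest control day8 value of 9.53. It fell by 4.72 ± 0.73 (adjusted p = 0.00229, limma). Its other probe set above the filter was at -0.71 and overlapped with control day8. Tested over all probe sets, that probe set did not pass (adjusted p = 0.769, limma). Isl1 gave 6.44, 6.36 and 5.71, again below every control, and fell by 2.35 ± 0.47 (adjusted p = 0.00726). Mef2c gave 4.78, 4.32 and 4.08 and fell by 2.53 ± 0.58 (adjusted p = 0.0128). These 3 calls held with each array left out in turn.

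Tbx20 gave 6.29, 6.33 and 5.13 with BPA, all under the lowest control day8 array of 8.07. Its difference of -2.85 ± 0.95 did not pass (adjusted p = 0.0578, limma), but passed without control day0 replicate 1 (adjusted p = 0.0236) or 2 (adjusted p = 0.0293), which enter the estimate of the spread. Myocd gave -0.81, 3.82 and 1.69, with only replicate 2 above background. It fell by at least 2.47 (adjusted p = 0.0241), and leaving out replicate 1 or 2 of control day8, or 1 or 3 of BPA day8, ended the call (highest adjusted p = 0.0762). Tbx2 gave -1.32, 2.66 and 0.49, all under background, so control day8 was at least 5.14-fold higher (adjusted p = 0.0307, no filter). That call was lost when any single control was left out, and also when replicate 1 or 3 of the BPA group was (highest adjusted p = 0.0985). Tbx5 gave 3.49, 1.16 and 3.17, below all 3 controls. Its fitted change of -2.42 ± 1.27 did not pass (adjusted p = 0.209, limma). It passed with the floor (-1.59, adjusted p = 0.0223) and with 32 added to the signals (-0.78, adjusted p = 0.0169). Nkx2-5 gave 4.08, 4.54 and 4.57, inside the control range, at -0.40 ± 0.53 (adjusted p = 0.641). The main probe set of Gata5 gave 3.46, 4.47 and 4.28, at -0.66 ± 0.54 (adjusted p = 0.43). Its second gave 4.13, -1.08 and -0.32, with 1 of 3 arrays above background and a change of -2.41 with the floor (adjusted p = 0.0713 over all probe sets), and the mean of both passed at -2.90 (adjusted p = 0.0214).

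The third comparison set the agent labelled NP against control day8, with the same control arrays as for BPA. Again all 9 changes were negative, and 3 genes passed as lower: Hand2, Mef2c and Isl1. Of all genes 6.28% were lower, and 17.1% had groups that did not overlap with NP lower, as 5 of the 9 did. The median change was -2.29, or -1.80 with the floor, and 0.01 over all genes. Hand2 gave 6.77, 5.11 and 5.09, all far below the controls, and fell by 4.19 ± 0.73 (adjusted p = 0.00682, limma). As the mean of its 2 probe sets above the filter it was at -2.36 and did not pass (adjusted p = 0.0548). The other of these 2, tested on its own over all probe sets, was at -0.54 and did not pass (adjusted p = 0.857, limma).

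Mef2c gave 5.50, 4.17 and 3.39 with NP and fell by 2.57 ± 0.58 (adjusted p = 0.0192, limma). Leaving out replicate 1 or 2 of control day8, or 2 or 3 of NP day8, ended the call (highest adjusted p = 0.0689). Isl1 gave 7.97, 6.47 and 5.71 and fell by 1.80 ± 0.47 (adjusted p = 0.0334). Its call ended without any control day8 array or NP day8 replicate 2 or 3 (adjusted p up to 0.108), in the fit without a filter (adjusted p = 0.06) and as the mean of probe sets (-1.22, adjusted p = 0.134). Its highest NP array came close to the lowest control, at 8.29. Tbx20 gave 6.88, 5.89 and 4.36, under all controls, at -3.05 ± 0.95 (adjusted p = 0.0614), and passed without control day0 replicate 1 (adjusted p = 0.028) or 2 (adjusted p = 0.0347). Tbx2 gave 3.35, 2.44 and -1.0, all under background and below every control. With control day8 at least 5.14-fold higher, its adjusted p was 0.092 without a filter, where 6.5% of genes were called. It passed with 32 added to the signals (-1.23, adjusted p = 3.79e-05, limma). With the background floor, which sets all 3 NP arrays to the same value, it also passed (-2.36, adjusted p = 4.62e-05).

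Myocd gave 6.12, 2.93 and 3.38 with NP, so that replicate 1 lay within the control range and the other arrays under background. The fitted change was -1.87 ± 1.17 (-1.70 with the floor, adjusted p = 0.333, limma). Tbx5 gave 3.33, 0.65 and 4.24, at -2.29 ± 1.27 (adjusted p = 0.271), or -1.34 with the floor. It passed with 32 added to the signals (-0.70, adjusted p = 0.0393). Nkx2-5 gave 4.04, 5.44 and 4.50, at -0.13 ± 0.53 (adjusted p = 0.904), and its sign turned when single arrays were left out. The main probe set of Gata5 gave 4.07, 2.37 and 4.60, at -1.05 ± 0.54 (-0.71 with the floor, adjusted p = 0.238), and the second gave 4.23, 2.51 and 3.23.

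NP day8 replicate 1 stood apart from the other NP arrays in heart muscle markers. The summed signal of 12 cardiomyocyte markers was 2208 on it and 391 and 441 on the others, against 3622 to 5838 on control day8, 465 to 768 with BPA and 156 to 204 at day 0. At control day8 that sum depends largely on Actc1 and Myl7, with mean log2 signals of 10.38 and 10.24. Of the 11 markers tested, 7 were lower than control day8 with BPA and 6 with NP, against 10.2% and 6.28% of all genes. Actn2, Ryr2, Nppa and Pln did not pass with either agent. NP day8 replicate 1 was also the highest of the 3 NP arrays for 6 of the 9 genes, a count that control day0 replicate 1 and control day8 replicate 2 reached in their groups too. Leaving out the highest array of a group lowers its mean, so the values without it are a description. Without it Isl1 was at -2.43 (adjusted p = 0.00174), Mef2c at -3.15 (adjusted p = 0.00706), Hand2 at -4.75 (adjusted p = 0.00573) and Tbx20 at -3.64 (adjusted p = 0.0526, limma). Tbx2 was then at -5.05 (adjusted p = 0.0725), Myocd at -2.86 (adjusted p = 0.147), Tbx5 at -2.59 (adjusted p = 0.297), Gata5 at -1.25 (adjusted p = 0.235) and Nkx2-5 at 0.18 (adjusted p = 0.879). Within control day8, replicate 3 was the lowest of the 3 arrays for 8 of the 9 genes.

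**Figure D2:**
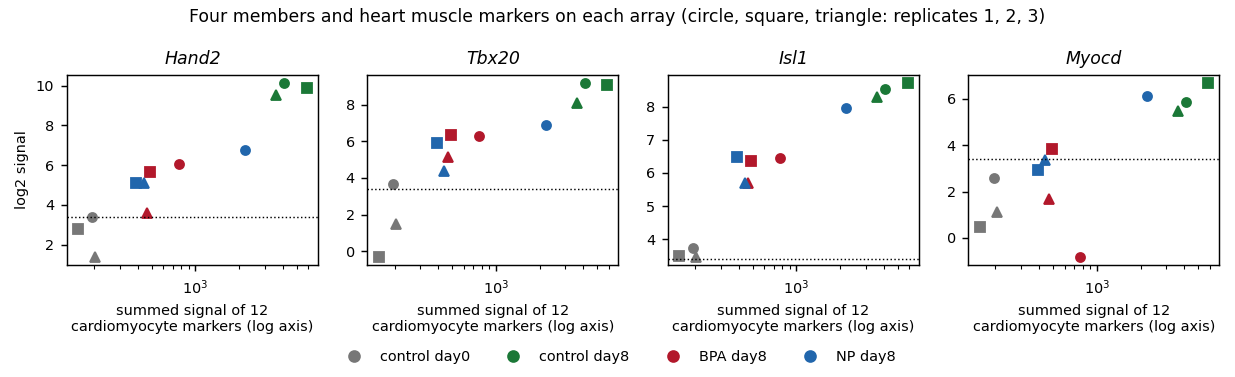
Log2 signal of Hand2, Tbx20, Isl1 and Myocd (vertical axis) against the summed signal of 12 cardiomyocyte markers (log axis) on each array, coloured by group, with circles, squares and triangles for replicates 1, 2 and 3. NP day8 replicate 1 lies apart from the other NP arrays towards control day8, at a summed signal of 2208.

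**Figure D3:**
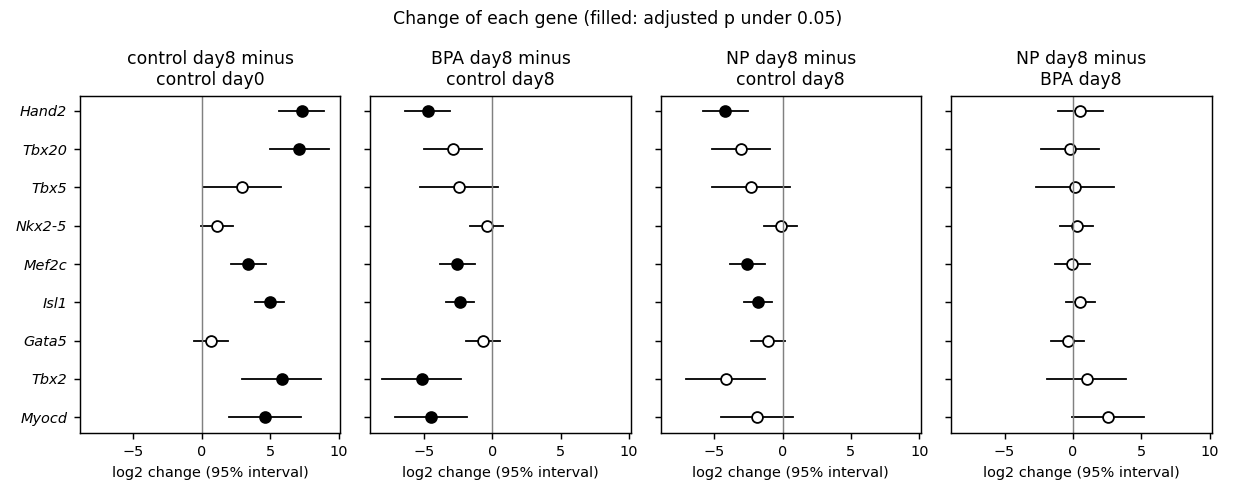
Log2 change of each of the 9 genes in 4 comparisons (horizontal axis) with 95% intervals from limma; filled points passed at an adjusted p under 0.05. In NP day8 minus BPA day8 all intervals include 0.

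The agents were then set against each other directly. By limma 0 of the 9 genes differed between NP and BPA, where 0.00765% of all genes were called, and 0.022% without a filter. At an unadjusted p under 0.05 it was 0 of the 9, where 8.38% of all genes lay. The largest fitted difference was that of Myocd, 2.58 higher with NP, with an interval from -0.05 to 5.21, and 0.77 with the floor. The interval reached from -1.11 to 2.17 for Hand2, from -0.51 to 1.60 for Isl1 and from -1.34 to 1.26 for Mef2c. For Tbx20 it reached from -2.33 to 1.92, so differences of several fold in either direction were not detectable with 3 arrays a group.

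The treated groups were also compared with day 0, using the same day 0 arrays for both. With BPA 3 of the 9 genes were higher than at day 0, against 21.7% of all genes, and with NP 3 of the 9, against 20.2%. They were Hand2, Tbx20 and Isl1 in both. Without a filter, as for Tbx2, 20.1% and 19.5% of genes were called in either direction. Isl1 was higher by 2.61 ± 0.47 with BPA (adjusted p = 0.0026, limma) and by 3.15 ± 0.47 with NP (adjusted p = 0.00106). With values under background set to it, Tbx20 was higher by at least 2.42 with BPA and 2.22 with NP. With BPA it did not pass as the mean of probe sets (adjusted p = 0.123), and with NP not in a fit of only the compared groups (adjusted p = 0.0559). Hand2 was at least 3.28-fold above background with BPA and 4.75-fold with NP. With BPA its call was lost when control day0 replicate 3 was left out, or replicate 1 or 2 of the BPA group (highest adjusted p = 0.0774), and in a fit of only the compared groups (adjusted p = 0.0694).

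Log2 signals, with low values set to background, were placed on a scale of 0% at control day0 and 100% at control day8. A percentage on this log2 scale is not a share of the linear signal. Isl1 averaged 52.6% with BPA (arrays from 43.4% to 58.0%) and 63.6% with NP (43.3% to 89.0%). Tbx20 averaged 46.0% (31.0% to 53.9%) and 42.0% (16.4% to 64.2%), and Hand2 26.6% (3.2% to 41.5%) and 34.9% (26.1% to 52.2%). Mef2c averaged 18.9% (8.8% to 31.4%) and 17.8% (-12.6% to 54.4%). Tbx2 was at 0.0% with both agents, since all 6 arrays lay under background. For Isl1 and Hand2 both agents passed as higher than day 0 and lower than control day8. For Tbx20 both passed as higher than day 0, and their difference from control day8 did not pass in the main fit. With the background floor that difference passed (adjusted p = 0.00404 with BPA and 0.00452 with NP, limma). It also passed with 32 added to the signals or only the top 40% of probe sets kept, but not under every alternative. The agents were not separated for any of these genes. Mef2c passed as lower than control day8 with both agents, and its difference from day 0 did not pass (0.86 ± 0.58 with BPA, adjusted p = 0.287, and 0.82 ± 0.58 with NP, adjusted p = 0.314, limma).

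The other 12 probe sets of these genes were looked at one by one in a fit over all 45037 probe sets. All 12 had a positive change from day 0 to control day8 and all 12 a negative one with either agent. The share of all probe sets with each sign was not counted, so these signs are a description. Some rest on values under background. The lowest Hand2 probe set and the other Tbx5 probe set were each above background on 1 control day8 array and on 0 arrays of the other groups. At day 8 without an agent 4 of them passed, 2 of Mef2c and 1 each of Tbx20 and Isl1, where 17.7% of all probe sets were called. With BPA 1 passed, of Mef2c, lower by at least 3.08 (adjusted p = 0.0394, limma), where 4.32% were called. With NP 0 of the 12 passed, where 1.7% were called.

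**Figure D4:**
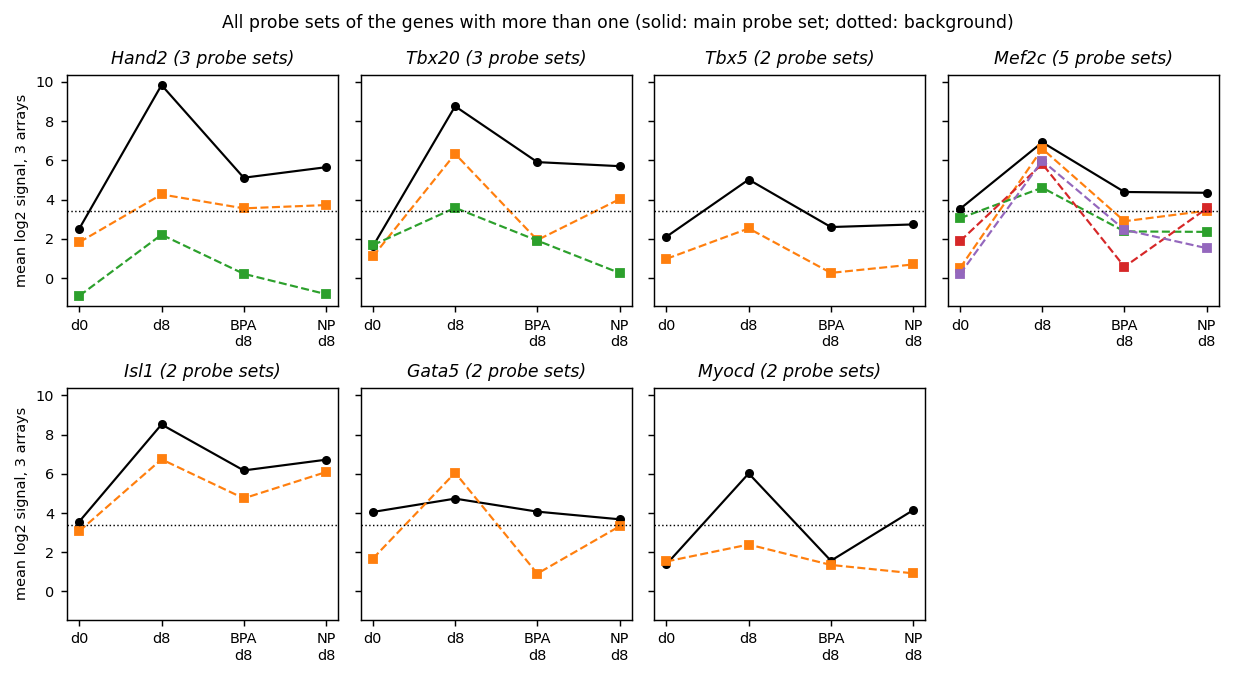
Mean log2 signal of 3 arrays (vertical axis) in each group for all probe sets of the 7 genes with more than 1; the solid line is the main probe set and the dotted line the background level. The second Gata5 probe set and 4 Mef2c probe sets besides the main one peak at control day8, while the main Gata5 probe set is nearly flat.

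Genes with the most similar pattern were sought by Pearson correlation over the 12 arrays, which fall into 4 groups, so the values describe these arrays. For Isl1 they were Peg3, Stxbp6 and Igfbp5 (0.989 each). Mef2c was followed most closely by its relative Mef2a (0.984), by Bmp5 (0.981) and by Dact1 (0.977). Hand2 was nearest to Maged1 (0.977), Zc4h2 (0.977) and Rgs5 (0.975), and Tbx20 to Cdc42ep1 (0.974). For Myocd the first was Frem1 (0.929), for Tbx5 Sfrp5 (0.913), for Tbx2 Prep (0.964), for Gata5 Lockd (0.940) and for Nkx2-5 Dexi (0.882).

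Around these genes, 51 further heart transcription factors could be tested. At control day8 34 were higher and 8 lower than at day 0, with a median change of 1.47. With BPA 22 of the 51 were lower and 3 higher than control day8 (median -0.83), and with NP 16 lower and 4 higher (median -0.96). Of all genes tested, 28.3% were higher and 20.5% lower over differentiation. With BPA 10.2% were lower and 12% higher, and with NP 6.28% lower and 7.9% higher. These shares stand beside the counts of the next lists too. Gata6, a partner of the GATA family in heart and endoderm, was at 4.25 ± 0.20 over differentiation, -1.94 ± 0.20 with BPA and -1.51 ± 0.20 with NP, and passed each time. Gata4, the main cardiac GATA factor, rose over differentiation by at least 2.01 and was at -0.52 with BPA (adjusted p = 0.641) and -0.41 with NP (adjusted p = 0.75, limma). Twist1, a bHLH factor of mesenchyme, fell by 3.02 ± 0.37 with BPA and 2.59 ± 0.37 with NP, and Snai2, a factor of epithelial to mesenchymal transition, by 3.20 ± 0.66 and 3.57 ± 0.66. Zfpm2, the GATA cofactor also called FOG2, fell with NP by at least 3.01. Mef2a fell by 0.79 ± 0.19 and 0.83 ± 0.19. Bhlhe40, a bHLH repressor, fell by 1.40 over differentiation and was higher than control day8 by 1.09 ± 0.18 with BPA and 0.90 ± 0.18 with NP. Larger fitted differences above control day8 were those of Heyl with BPA (3.48) and Mef2b with NP (1.38). Both calls ended without single arrays (highest adjusted p = 0.0645 and 0.0855, limma). Heyl had fallen by 3.77 over differentiation as fitted.

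Of 28 cardiac target genes tested, 20 rose and 1 fell over differentiation (median 1.92). With BPA 19 fell (median -1.81) and with NP 11 fell (median -1.23). Tnnt2, the cardiac troponin T, was higher at control day8 by at least 5.47 and Myh7, a myosin heavy chain, by at least 5.08. Actc1, the cardiac actin, was at -3.78 ± 0.86 with BPA, and Myl7, the atrial light chain, at -4.38 ± 0.88. Of 14 smooth muscle genes, 5 rose and 2 fell over differentiation (median 0.42), where 28.3% of all genes rose and 20.5% fell. With BPA 7 fell (median -1.26) and with NP 4 (median -0.96). Acta2, a target of SRF with Myocd, fell by 2.65 ± 0.45 and 2.40 ± 0.45. Its mean log2 signal was already 11.17 at day 0, where Myocd lay under background on all arrays, and 11.67 at control day8. That change of 0.50 ± 0.45 did not pass. Against day 0 Acta2 was at -2.15 ± 0.45 with BPA and -1.91 ± 0.45 with NP, and passed as lower both times. Whether Acta2 followed Myocd was not tested. Whether RNA of the fibroblast feeders entered the Acta2 signal was not tested either. The call of Tnnt2 with either agent and those of Actc1 and Myl7 with NP ended without single arrays (adjusted p up to 0.13).

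Of 28 genes of signals that induce heart tissue, 19 rose and 1 fell over differentiation (median 1.44). Against control day8, 15 were lower and 1 higher with BPA (median -0.85), and 11 lower and 1 higher with NP (median -0.75). Bmp2, a ligand that induces cardiac mesoderm, rose over differentiation by at least 4.95. Bmp5, a related ligand, fell by 2.62 ± 0.55 with BPA and 2.93 ± 0.55 with NP. Kdr, a receptor of vascular and cardiac progenitors, fell by 2.94 ± 0.44 and 2.54 ± 0.44. Nodal, a ligand of early mesendoderm, fell by 2.28 ± 0.30 over differentiation. With the agents it was higher than control day8 by 1.74 ± 0.30 and 1.85 ± 0.30. It did not pass against day 0 (-0.54 with BPA, adjusted p = 0.2, and -0.43 with NP, adjusted p = 0.315, limma). All these lists were drawn up with earlier results of the series known. Their counts, medians and named genes are descriptions, and no list was tested as a set.

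**Figure D5:**
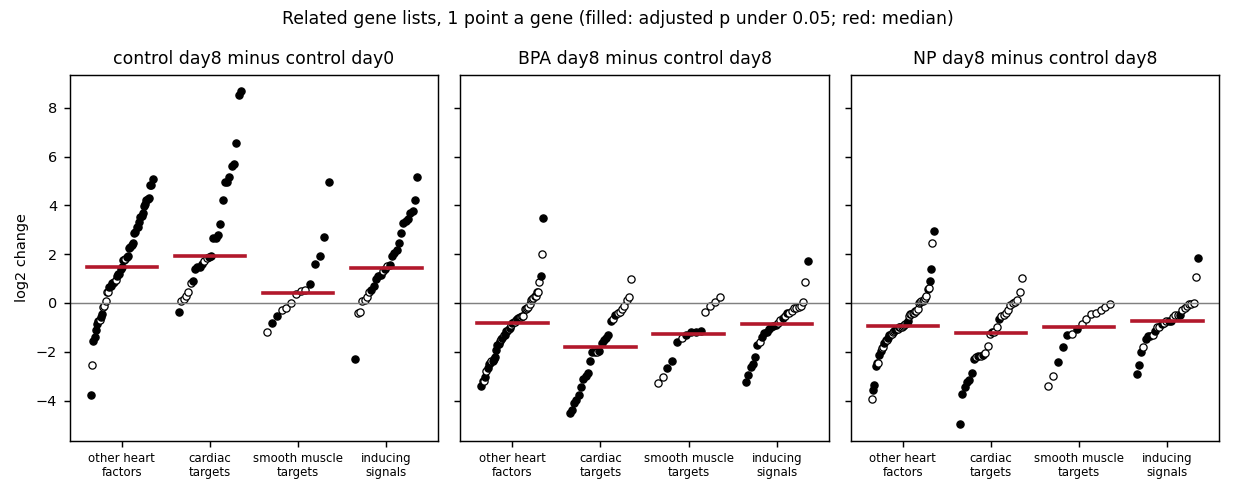
Log2 change (vertical axis) of each tested gene of 4 related lists in 3 comparisons, sorted within a list, with filled points for an adjusted p under 0.05 and a red line at the median. List medians are above 0 over differentiation, from 0.42 to 1.92, and below 0 with either agent.

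Markers of other cell types were summed on each array. The summed signal of 12 pluripotency markers was 30373 to 30740 at day 0, 3604 to 7324 at control day8, 21771 to 22566 with BPA and 17693 to 23653 with NP. All 12 markers fell over differentiation and were higher than control day8 with either agent. Against day 0, 0 passed as higher with either agent, and 5 passed as lower with BPA and 4 with NP. The sum of 12 markers of fibroblasts and limb mesenchyme was 6006 to 7567, 6089 to 9338, 641 to 812 and 547 to 883 in turn, and 9 of 12 fell with each agent. For 12 markers of endothelium and blood it was 133 to 195, 1477 to 1891, 381 to 611 and 316 to 646. For 11 markers of extraembryonic endoderm it was 201 to 229, 9511 to 18823, 8997 to 12889 and 15444 to 17526, so the range of each treated group overlapped that of control day8. For 11 neural and motor neuron markers it was 1923 to 2149, 281 to 338, 536 to 746 and 671 to 1059. That sum depends largely on Stmn2, whose mean log2 signal was 10.73, 6.85, 8.75 and 9.18 in turn. With each agent 2 of the 6 tested markers passed as higher than control day8, Stmn2 and Tubb3. Sox1, Pax6, Nes and Map2 did not pass with either. At control day8, Olig2, Mnx1, Neurog2 and Dcx of that list were at background on all arrays, and Lhx3 was not. For 12 skeletal muscle markers the sum was 363 to 514, 233 to 317, 396 to 472 and 449 to 542, and Myf5, Myod1, Myf6 and Chrna1 were at background on all control day8 arrays. Over differentiation 2 of the 5 of them that could be tested rose, Pax3 by at least 1.79 and Acta1 by 1.47, and 2 fell, Mylpf and Myh3. With BPA Pax3 was lower than control day8 by 1.02 (adjusted p = 0.0348, limma). Mylpf was higher than control day8 by 2.33, at 8.23 against 8.41 at day 0. The part of these other cells in the changes of the 9 genes was not tested, nor was that of feeder RNA in the fibroblast sum.

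The arrays had equal trimmed mean signals, and from 58.2% to 62.2% of probe sets lay above background on each. Correlations between arrays of a group lay between 0.938 and 0.951 over the genes tested. Quantile normalization moved the median change of all genes from day 0 to control day8 from 0.12 to 0.01. The signs of the 9 changes in that comparison and in those of each agent against control day8 were the same after quantile normalization and after median centring.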

How the data were processed

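Biotin-labelled cDNA made from total RNA of 12 samples was hybridised to Affymetrix arrays. The authors made the deposited log2 signals with MAS5, per the submitters' processing notes. The version and the scaling target are not given in the sources used here. The trimmed mean of the linear signal without the top and bottom 2% was 100.0 on every array. Values were used as deposited, without a pseudocount.

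Probe sets were named from the platform's gene table: 34958 have 1 gene, 932 several and 9211 are not listed. Entrez identifiers tied 34754 of the first kind to RefSeq genes. The 64 control probe sets were left out, the 60% with the highest mean kept (27022) and each gene represented by its highest probe set. With limma 3.58.1 (R 4.3.3), group means of 13066 genes were estimated in one model over the 12 arrays (8 residual and 1.57 prior degrees of freedom), 2-sided, with Benjamini-Hochberg adjustment over all genes tested and a threshold of 0.05. Intervals are 95% intervals. Tbx2 did not pass the filter and was tested among 18193 genes without it. The method was tested on simulated data.

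Where arrays of a group lay under the background level of 3.41 (a signal of 10.6, the highest of 36 values of 3 TrpnX probe sets), values under it were set to it, and called changes of the 9 genes are given as at least that size. Changes that did not pass, and values under alternatives, are fitted values as deposited, with the floored value beside them where it is given. Unless a change is said to pass with the floor, the adjusted p beside a floored value is that of the fit without it. Genes were named by rule: the 9 genes with all probe sets, up to 3 genes per direction of each related list (the largest changes that passed and had no overlap between groups), the marker lists as sums, and the 3 genes most correlated with each of the 9. Partner genes of the GATA and MEF2 families and further list members were added after their values were seen. The 9 genes and all lists were chosen with earlier results of these data known. Same-numbered arrays showed no strong common deviation (18 pairs, correlations from -0.009 to 0.081, against -0.112 to 0.055 for the other pairs). The labels do not say what the numbers mark, so the main fit used no pairing. Alternatives were another pseudocount, filter, scaling, probe set rule, set of arrays, background floor and a replicate block. Figures were drawn with matplotlib 3.10.9.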

Additional observations from a re-analysis of the deposited data

Results flagged for a closer look

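Of all 13066 genes tested, 1 differed between the agents by limma, Tgfb3, a ligand of the TGF-beta family, which is named because it is the only gene called and was chosen after its values were seen. The fitted difference, NP minus BPA, was 3.14 ± 0.33 on the log2 scale (adjusted p = 0.0425). Its level was 3.70 ± 0.16 (SD, n = 3) with NP, 0.56 ± 0.70 with BPA, 3.78 at control day8 and 4.65 at control day0. All 3 NP arrays and 0 of the 3 BPA arrays lay above the background level of 3.41, so the difference is at least 0.30 with values under background set to it. At an unadjusted p under 0.05, 1095 genes differed between the agents.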

How the results depend on the processing

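The direction of every called change of the 9 genes was kept under all alternatives run. Against control day8, 5 of the 9 genes were called with BPA, 3 with each probe set tested on its own (chosen after seeing the data), and 3 to 6 with single arrays left out. With NP, 3 were called, 6 after adding 32 to the signals, 5 with the background floor, 1 with the mean of probe sets, 1 with only the compared groups, 1 with each probe set on its own, and 1 to 4 with single arrays left out. Over differentiation 6 to 7 were called with single arrays left out, and from day 0 2 to 3 with BPA, 3 with NP. Over all genes, leaving out single arrays gave 5515 to 6285 calls over differentiation, 1822 to 2949 with BPA and 802 to 1874 with NP against control day8, 3327 to 4477 with BPA and 3096 to 4351 with NP against day 0, and 0 to 3 between the agents. NP against control day8 had 1852 calls, 1182 without a filter and 645 with only the compared groups. Between the agents the 1 call became 4 without a filter, 3 with the mean of probe sets, and 0 with 32 added, the top 40%, median centring, the floor, only the compared groups or the replicate block.

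Signs turned only for changes not called. Between NP and BPA, Mef2c was at 0.04 with 32 added, and with the mean of probe sets Mef2c was at 0.86, Tbx20 at 0.94 and Gata5 at 1.01. From day 0 with BPA, Tbx5 was at -0.01 with 32 added and -0.20 with the floor, and Gata5 at -0.05 with quantile normalization, -0.06 with median centring and -0.38 with the mean of probe sets. With NP Gata5 was at 0.63 with the mean of probe sets. With single arrays left out, Nkx2-5 ranged from -0.68 to 0.18 for NP against control day8. Between the agents the ranges were -0.61 to 0.44 for Mef2c, -0.79 to 0.47 for Tbx20, -0.62 to 1.18 for Tbx5, -0.22 to 1.01 for Hand2, -0.08 to 1.05 for Isl1, -0.13 to 0.58 for Nkx2-5 and -0.85 to 0.26 for Gata5. From day 0 they were -0.78 to 1.48 for Tbx5, -0.19 to 0.32 for Gata5, -0.34 to 1.65 for Tbx2 and -0.95 to 1.36 for Myocd with BPA, and -0.65 to 1.67 for Tbx5 and -0.84 to 0.28 for Gata5 with NP. The cause was not tested.

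With the replicate block, the number in the labels taken as a pair, Tbx20 passed with BPA (-2.85, adjusted p = 0.0358) and NP (-3.05, adjusted p = 0.0413), and Tbx2 no longer passed with BPA (adjusted p = 0.0593, limma). The block gave 6176 calls over differentiation, 2646 with BPA and 1551 with NP against control day8. Correlations of the 18 same-numbered pairs lay from -0.009 to 0.081, and those of the other pairs from -0.112 to 0.055. These low values cannot tell whether same-numbered samples shared a culture or batch.

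Signal over background limits these values: Tbx2 lay under background on all arrays outside control day8, and Myocd on all 3 arrays at day 0 and on 2 of 3 with each agent.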
